A study of Mus musculus with 18 samples.

Results

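Transcripts of 9 genes that set where B cells sit in lymphoid tissue were followed in splenic and Peyer's patch B cells of allergic mice. They were taken by symbol from the table of 55491 genes: *Klf2*, *S1pr1*, *S1pr2*, *S1pr4*, *Gna13*, *Arhgef1*, *Gcsam*, *Rgs13*, and *Gpr183*. The set was chosen with earlier results of these data known. Bulk RNA-Seq was available for 18 libraries in 6 groups of 3. All mice were female BALB/cJ, 10–12 weeks old, and had been sensitized to ovalbumin (OVA) on days 0 and 14 by i.p. injection of 20 μg of the protein in 1 mg alum, so PBS mice were allergic controls and no unsensitized group was included. On days 28 and 42 the mice received i.v. 100 μL PBS, 100 μg soluble OVA, or 2.5 mg OVA NPs, which are polymer nanoparticles that carry OVA inside. B cells were collected on day 44 by magnetic negative selection, a pan-B cell isolation that does not separate B cell subsets. The labels name biological replicates but do not say whether spleen and Peyer's patch libraries with the same number came from the same mouse.

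B cells leave lymphoid tissue along a gradient of the lipid sphingosine-1-phosphate (S1P), which is high in blood and lymph. KLF2 is a transcription factor of resting lymphocytes that maintains *S1pr1*, the main egress receptor. Germinal center B cells instead express S1PR2, which signals through the G protein Gα13 and the exchange factor ARHGEF1 to hold cells in the follicle center, and they lose EBI2, the oxysterol receptor encoded by *Gpr183* that draws activated B cells to the follicle edge.

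The sequences before the transcription starts of 4 of these genes are shown, because *Klf2* on one side and *S1pr2*, *Gcsam*, and *Rgs13* on the other differed in opposite directions in the spleen. They come from RefSeq on GRCm38.p6, read 5′ to 3′ on the gene's strand, and end before the first annotated transcribed base. The windows are chr8:72318812-72319032 on the plus strand for *Klf2*, chr9:20976794-20977043 on the minus strand for *S1pr2*, chr16:45610190-45610379 on the plus strand for *Gcsam*, and chr1:144177373-144177622 on the minus strand for *Rgs13*. Capitals mark CACCC or its complement GGGTG, a core bound by KLF proteins, and CTA and TAG spaced by any 4 bases, a core bound by MEF2 proteins.
Klf2: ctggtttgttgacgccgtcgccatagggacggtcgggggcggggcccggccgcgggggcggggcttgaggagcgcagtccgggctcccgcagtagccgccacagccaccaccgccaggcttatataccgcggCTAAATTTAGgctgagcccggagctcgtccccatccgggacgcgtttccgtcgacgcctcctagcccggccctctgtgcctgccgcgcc
S1pr2: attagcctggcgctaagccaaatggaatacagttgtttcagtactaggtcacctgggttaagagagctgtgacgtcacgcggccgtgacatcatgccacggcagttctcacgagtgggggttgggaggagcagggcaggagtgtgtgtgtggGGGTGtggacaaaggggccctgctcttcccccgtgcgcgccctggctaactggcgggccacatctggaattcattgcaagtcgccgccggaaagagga
Gcsam: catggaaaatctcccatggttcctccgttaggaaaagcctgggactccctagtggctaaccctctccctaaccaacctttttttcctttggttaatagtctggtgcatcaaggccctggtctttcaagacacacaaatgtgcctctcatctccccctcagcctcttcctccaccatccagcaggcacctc
Rgs13: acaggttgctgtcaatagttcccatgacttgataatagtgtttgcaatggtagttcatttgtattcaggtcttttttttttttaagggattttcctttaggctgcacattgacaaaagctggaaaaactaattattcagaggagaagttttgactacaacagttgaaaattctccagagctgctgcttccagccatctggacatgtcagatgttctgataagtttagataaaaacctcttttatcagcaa

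The *Klf2* window of 221 bases held 1 MEF2 core, beginning at base 133, and windows of that length held one in 2.86% of 32851 promoters. It also held 2 copies of GGGCGG (the reverse CCGCCC was searched too), a core of GC boxes present in 28.7% of promoters of that length. The *S1pr2* window of 250 bases held 1 GGGTG at base 153, against 52.0% of promoters of that length with the motif on either strand. None of these motifs was found in the *Gcsam* or *Rgs13* window. The *Klf2* and *Gcsam* windows stop at an earlier annotated start, after 221 and 190 bases. Over all 250 bases before the RefSeq start, each of these 2 genes held 1 CACCC or GGGTG. These matches are letters in a window, and binding was not measured. GC content was 71.5% for *Klf2*, 59.2% for *S1pr2*, 51.6% for *Gcsam*, and 36.0% for *Rgs13*.

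Library totals ran from 14177253 to 30052297 counts, and all 9 genes passed the count filter in every comparison. Levels are given as counts per 1000000 (CPM), with library sizes scaled by TMM over the 18 libraries. At these depths 3 counts correspond to between 0.0998 and 0.212 CPM, so even the lowest level below, 2.44 CPM of *Rgs13* in a spleen PBS library, was well above this limit, which covers counting error only. The summed level of 11 naive and follicular B cell markers, among them *Ms4a1* and *Cd79a*, was between 5421 and 11682 CPM in every library. The 10 T cell markers summed to between 7.21 and 11.3 CPM in spleen, and in Peyer's patch to 35.3–46.8 CPM with PBS, 23.0–31.6 CPM after soluble OVA, and 57.4–80.1 CPM after OVA NPs. The 6 intestinal epithelial markers summed to at most 17 CPM in spleen and between 199 and 913 CPM in Peyer's patch, where *Krt20* was detected in every group but at 0 in spleen. Mitochondrial transcripts took between 2.82% and 3.41% of spleen counts, 5.41% and 7.67% in Peyer's patch PBS, 4.97% and 6.02% after soluble OVA, and 9.08% and 9.80% after OVA NPs. The part of these differences in the results was not tested.

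A gene was called when the edgeR quasi-likelihood test gave a Benjamini-Hochberg adjusted p under 0.05 over all tested genes and the absolute log2 fold change exceeded 0.25. In the spleen, OVA NPs changed 6 of the 9 genes against PBS, 3 higher and 3 lower, where 15% of 14200 tested genes were called, 8.6% higher and 6.35% lower. Soluble OVA changed 7, 4 higher and 3 lower, where 17.2% of 14128 genes were called, 10.5% higher and 6.72% lower. The libraries of the compared groups did not overlap for 6 of the 9 genes with OVA NPs (37.2% of all tested genes) and for 8 with soluble OVA (37.8%). Both treatments are compared with the same PBS libraries, so their values are given side by side without a test of likeness. Between OVA NPs and soluble OVA in the spleen 0 of the 9 genes were called by edgeR, against 0.238% of 13840 genes (0.137% higher, 0.101% lower). Of the 9, 3 had an unadjusted edgeR p under 0.05 (8.66% of all genes) and 3 did not overlap (14.2% of all genes). DESeq2 also called 0 of the 9, and 113 genes over the whole table.

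Peyer's patch B cells had 7 of the 9 genes changed by soluble OVA, 2 higher and 5 lower, where 27.4% of 15792 genes were called, 13.5% higher and 13.9% lower. OVA NPs changed 0 of the 9 against PBS by edgeR, with 0% of 15798 genes called. Here 2 of the 9 and 1573 genes had an unadjusted p under 0.05, and DESeq2 called 0 of the 9 and 149 genes. OVA NPs differed from soluble OVA in 5 of the 9, 3 higher and 2 lower, where 30.1% of 15599 genes were called, 13.8% higher and 16.3% lower. Libraries did not overlap for 6 of the 9 genes with soluble OVA against PBS (45.1% of all genes), 3 with OVA NPs against PBS (17.3%), and 6 between the treatments (48.4%).

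**Figure D1:**
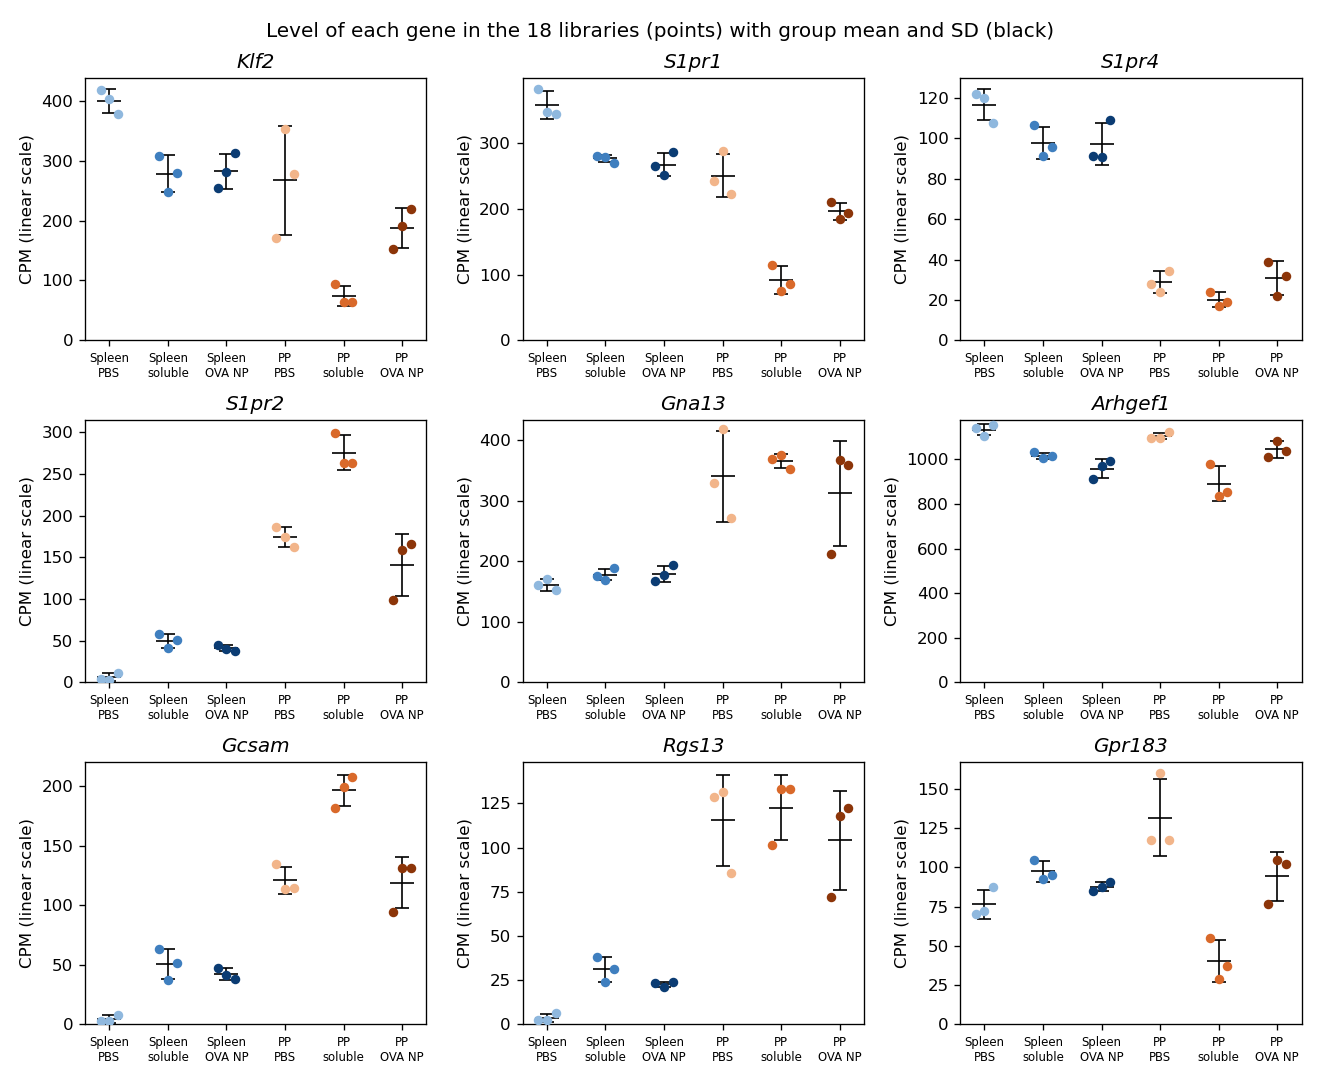
Level of each of the 9 genes in CPM (vertical axis, linear, from 0) in the 6 groups (horizontal axis); points are the 3 libraries of a group, in the order of replicates 1 to 3, and black bars are the mean and SD. *Klf2*, *S1pr1*, and *Gpr183* have their lowest group mean in Peyer's patch after soluble OVA, at 74.2, 91.9, and 40.6 CPM, while *S1pr2* and *Gcsam* have their highest there, at 275 and 196 CPM.

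*Klf2*, on chr8:72319033-72321656, was lower after either treatment in the spleen and was lowest in Peyer's patch after soluble OVA. Its level in spleen PBS libraries was 417, 402, and 378 CPM. After soluble OVA it was 308, 247, and 279 CPM, and after OVA NPs 254, 281, and 312 CPM. Every treated spleen library lay below every PBS library. The log2 fold change was -0.52 ± 0.08 (SE, n = 3 per group, edgeR adjusted p = 0.000299) for soluble OVA and -0.49 ± 0.07 (edgeR adjusted p = 0.000232) for OVA NPs. Both calls were kept when any 1 library was left out, and both ended when all 18 libraries shared 1 estimate of spread, with edgeR adjusted p of 0.159 and 0.204. Peyer's patch PBS libraries held 171, 352, and 278 CPM, the widest spread of any group for this gene. Soluble OVA libraries held 93.4, 64.3, and 64.7 CPM and OVA NP libraries 153, 191, and 219 CPM. Soluble OVA lay below both other groups without overlap, whereas OVA NP and PBS libraries overlapped. *Klf2* fell by 1.86 on the log2 scale with soluble OVA (SE 0.32, 3.63-fold, edgeR adjusted p = 0.0133) and was 2.54-fold higher after OVA NPs than after soluble OVA (log2 fold change 1.34 ± 0.20, edgeR adjusted p = 0.00418). Against PBS the difference for OVA NPs was -0.50, with a 95% interval from -1.21 to 0.22. The soluble OVA call against PBS was lost without PBS replicate 3 (edgeR adjusted p = 0.0533), soluble OVA replicate 2 (0.0725), or soluble OVA replicate 3 (0.0549), with log2 fold changes of -1.78, -1.71, and -1.71, and the OVA NP against soluble OVA call was kept in all 6.

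*S1pr1*, the egress receptor on chr3:115710433-115715072, differed in the same directions as *Klf2*. Spleen PBS libraries held 383, 348, and 344 CPM, soluble OVA libraries 281, 279, and 271 CPM, and OVA NP libraries 265, 251, and 287 CPM. The treated spleen libraries lay below the PBS libraries without overlap. The log2 fold change was -0.37 ± 0.06 for soluble OVA (edgeR adjusted p = 0.00106) and -0.41 ± 0.06 for OVA NPs (edgeR adjusted p = 0.000316). The soluble OVA call ended at an adjusted p of 0.0544 when all 18 libraries were fitted together. Peyer's patch PBS libraries held 242, 288, and 223 CPM, soluble OVA libraries 115, 74.5, and 85.6 CPM, and OVA NP libraries 211, 185, and 193 CPM. These 3 groups did not overlap, with soluble OVA lowest and OVA NPs between. *S1pr1* fell by 1.46 on the log2 scale with soluble OVA (SE 0.17, 2.75-fold, edgeR adjusted p = 0.00126) and was higher by 1.11 ± 0.18 after OVA NPs than after soluble OVA (2.15-fold, edgeR adjusted p = 0.00454). OVA NPs differed from PBS by -0.34 (95% interval -0.57 to -0.10), with an edgeR adjusted p of 0.375. These calls for *S1pr1* were kept without any 1 library.

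*S1pr4*, on chr10:81497747-81500132, encodes an S1P receptor of leukocytes whose role in B cells is less settled. It separated the tissues more than the treatments. Spleen libraries held between 90.9 and 122 CPM and Peyer's patch libraries at most 38.8 CPM, with no overlap. In the spleen the log2 fold change was -0.26 ± 0.07 for OVA NPs (edgeR adjusted p = 0.026) and -0.25 ± 0.07 for soluble OVA (edgeR adjusted p = 0.0196), both at the edge of the fold change cutoff. The OVA NP call was lost without PBS replicate 1 (-0.22), PBS replicate 2 (-0.24), OVA NP replicate 1 (-0.22), or OVA NP replicate 2 (-0.21), and the soluble OVA call without PBS replicate 1 (-0.21), PBS replicate 2 (-0.23), soluble OVA replicate 2 (-0.20), or soluble OVA replicate 3 (-0.23). With all 18 libraries in 1 fit both calls ended, at edgeR adjusted p of 0.415 and 0.413, and DESeq2 put the soluble OVA change just under the cutoff. Peyer's patch libraries after soluble OVA gave -0.53 ± 0.17 against PBS (edgeR adjusted p = 0.0448) although the libraries overlapped. That call was lost without PBS replicate 1 (-0.56), PBS replicate 3 (-0.32), soluble OVA replicate 2 (-0.37), or soluble OVA replicate 3 (-0.44), and with DESeq2 size factors (-0.51).

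*S1pr2*, the confinement receptor on chr9:20962361-20976781, was at its lowest in spleen PBS B cells and rose several-fold there after either treatment. Spleen PBS libraries held 3.86, 3.38, and 11.8 CPM, so replicate 3 stood above the others. Soluble OVA libraries held 57.9, 41.0, and 51.2 CPM, and OVA NP libraries 45.4, 40.7, and 37.6 CPM. All treated spleen libraries lay above the highest PBS library. The difference was 8.01-fold for soluble OVA (log2 fold change 3.00 ± 0.52, edgeR adjusted p = 0.0232) and 6.59-fold for OVA NPs (2.72 ± 0.52, edgeR adjusted p = 0.0334). Without PBS replicate 3 the log2 fold changes were 3.80 and 3.51, with edgeR adjusted p of 2.14e-07 and 2.16e-08. Leaving out any other 1 of the 6 libraries ended the call, with log2 fold changes of at least 2.69 and adjusted p up to 0.0873 for soluble OVA, and at least 2.41 and up to 0.11 for OVA NPs. The OVA NP call also ended without the count filter. OVA NPs differed from soluble OVA in the spleen by -0.28, with a 95% interval from -0.53 to -0.03 and an edgeR adjusted p of 0.517.

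In Peyer's patch, where germinal centers form in response to gut bacteria, *S1pr2* was already high with PBS, at 186, 174, and 162 CPM. Soluble OVA libraries held 299, 263, and 264 CPM and OVA NP libraries 98.7, 159, and 166 CPM. Soluble OVA libraries were above those of both other groups, and OVA NP replicate 1 was the lowest of the 9. *S1pr2* rose 1.57-fold with soluble OVA (log2 fold change 0.65 ± 0.08, edgeR adjusted p = 0.000495) and was 1.94-fold lower after OVA NPs than after soluble OVA (-0.96 ± 0.19, edgeR adjusted p = 0.0114). Against PBS, OVA NPs gave -0.29 with a 95% interval from -0.71 to 0.12. Both calls were kept without any 1 library. The rise with soluble OVA ended at an adjusted p of 0.106 in the fit of all 18 libraries, and the difference between OVA NPs and soluble OVA ended without the count filter.

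Set per kb of exon so that genes of different length can be compared, *S1pr1* exceeded *S1pr2* by 260, 269, and 76.6 times in the 3 spleen PBS libraries. This ratio of levels was 12.7–17.8 in spleen after soluble OVA and 15.3–19.97 after OVA NPs. Peyer's patch ratios were 3.40–4.32 with PBS and 3.04–5.60 with OVA NPs. After soluble OVA in Peyer's patch it was 1.01, 0.741, and 0.850, so *S1pr2* was above the level of *S1pr1* in 2 of the 3 libraries and just below it in the other. The lengths joined all annotated exons, 7.971 kb for *S1pr2* and 3.046 kb for *S1pr1*, and the crossing depends on them. In CPM without length, *S1pr2* was above *S1pr1* in all 3 of these libraries (299, 263, and 264 against 115, 74.5, and 85.6). The ratio was not tested.

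**Figure D2:**
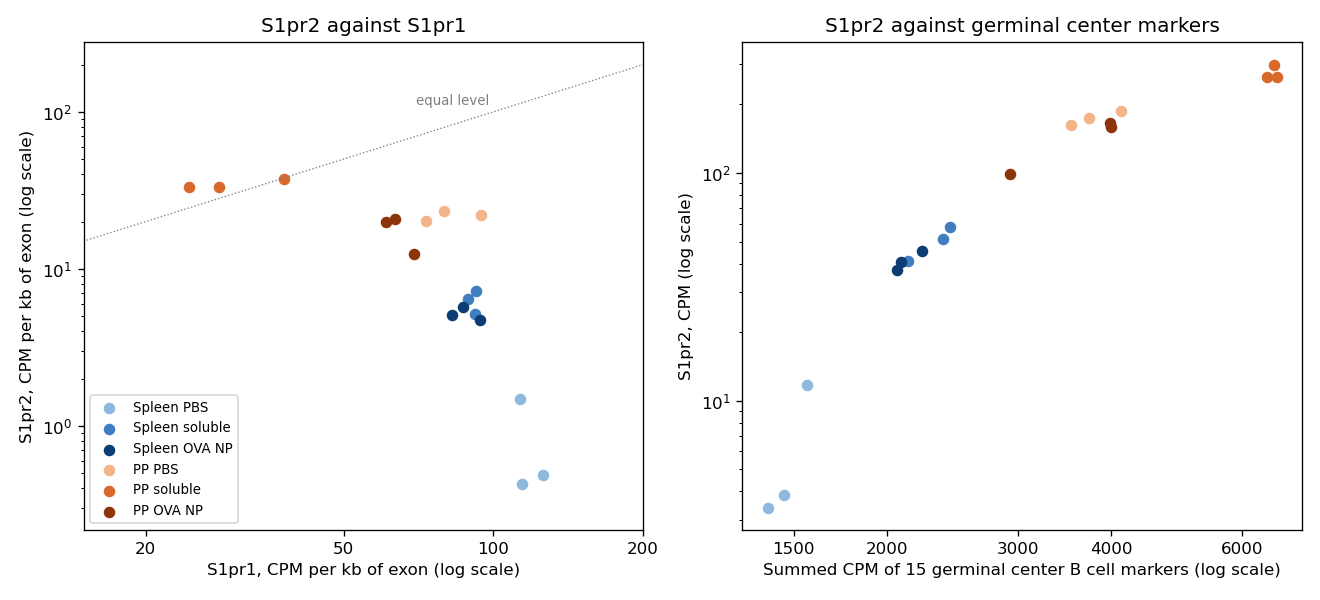
Left, *S1pr2* against *S1pr1*, both in CPM per kb of exon on log axes, and the dotted line marks equal levels. Right, *S1pr2* in CPM against the summed CPM of 15 germinal center B cell markers, both on log axes. Each point is 1 of the 18 libraries, and the 3 Peyer's patch libraries after soluble OVA lie at the equal-level line and at the top of the marker axis.

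*Gcsam*, on chr16:45610380-45622867, encodes a germinal center adaptor that acts on B cell signaling and motility. *Rgs13*, on chr1:144138654-144177372, encodes a regulator that shortens G protein signals from chemokine receptors in germinal center B cells. Spleen PBS libraries held 2.90, 2.65, and 8.01 CPM of *Gcsam* and 2.51, 2.44, and 6.33 CPM of *Rgs13*, with replicate 3 again the highest for both. *Gcsam* libraries held 62.8, 37.4, and 51.5 CPM after soluble OVA and 47.5, 41.2, and 37.8 CPM after OVA NPs. *Rgs13* libraries held 37.9, 24.0, and 31.4 CPM after soluble OVA and 23.2, 21.2, and 24.0 CPM after OVA NPs. For both genes every treated spleen library was above every PBS library. *Gcsam* rose 11.4-fold with soluble OVA (log2 fold change 3.51 ± 0.49, edgeR adjusted p = 0.0115) and 9.44-fold with OVA NPs (3.24 ± 0.46, edgeR adjusted p = 0.0131). *Rgs13* rose 8.38-fold with soluble OVA (3.07 ± 0.41, edgeR adjusted p = 0.00656) and 6.13-fold with OVA NPs (2.62 ± 0.38, edgeR adjusted p = 0.00924). The *Rgs13* calls were kept without any 1 library. The *Gcsam* call for soluble OVA was lost without PBS replicate 1 (3.28, edgeR adjusted p = 0.0527), and that for OVA NPs without OVA NP replicate 1 (3.14, 0.056) or OVA NP replicate 2 (3.25, 0.0575). Between OVA NPs and soluble OVA in the spleen, *Rgs13* libraries touched at 24.0 CPM without overlapping and the log2 fold change was -0.45 (95% interval -0.75 to -0.15, edgeR adjusted p = 0.34), called only when no count filter was applied.

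The 2 genes parted in Peyer's patch. *Gcsam* libraries held 134, 114, and 114 CPM with PBS, 182, 199, and 208 CPM after soluble OVA, and 94.5, 131, and 131 CPM after OVA NPs. *Gcsam* was higher with soluble OVA than with PBS (1.61-fold, log2 fold change 0.69 ± 0.09, edgeR adjusted p = 0.000719) and lower with OVA NPs than with soluble OVA (-0.71 ± 0.12, edgeR adjusted p = 0.00245), without overlap in either comparison. The first of these calls ended at an adjusted p of 0.0545 in the fit of all 18 libraries. *Rgs13* libraries held 129, 132, and 85.6 CPM with PBS, 101, 133, and 133 CPM after soluble OVA, and 72.1, 118, and 123 CPM after OVA NPs, and all 3 groups overlapped. Its log2 fold change with soluble OVA was 0.08, with a 95% interval from -0.40 to 0.56.

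*Gna13*, on chr11:109362831-109401369, and *Arhgef1*, on chr7:24902912-24926594, encode Gα13 and its exchange factor, through which S1PR2 signals. Neither passed both cutoffs against PBS in the spleen. *Gna13* ranged from 152 to 193 CPM over the 9 spleen libraries, with log2 fold changes of 0.14 (95% interval 0.00 to 0.28) for soluble OVA and 0.16 (0.02 to 0.29) for OVA NPs. Its Peyer's patch range was 212 to 419 CPM, with overlap among the 3 groups and log2 fold changes of 0.09 (-0.23 to 0.42) and -0.11 (-0.73 to 0.50). A total of 151 exon bases of *Gna13*, 2.35% of its exon length, overlap *Gm11696* on the opposite strand, and the strand setting of the counting was not given in the sources used here. *Arhgef1* was the most even of the 9, between 837 and 1153 CPM in all libraries. It was lower with OVA NPs in the spleen by a log2 fold change of -0.23 ± 0.06 (edgeR adjusted p = 0.00787), which is under the fold change cutoff. It exceeded the cutoff without PBS replicate 2 (-0.26) or OVA NP replicate 3 (-0.26), and without the count filter (-0.25). With soluble OVA it fell by 0.32 in Peyer's patch (SE 0.08, edgeR adjusted p = 0.0124), a call lost without PBS replicate 2 (-0.30), PBS replicate 3 (-0.26), soluble OVA replicate 2 (-0.23), or soluble OVA replicate 3 (-0.24).

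*Gpr183*, on chr14:121952551-121965195, moved in opposite directions in the 2 tissues after soluble OVA. Spleen libraries held 70.5, 72.1, and 87.3 CPM with PBS, 105, 92.5, and 95.2 CPM after soluble OVA, and 85.0, 87.7, and 90.7 CPM after OVA NPs. Soluble OVA libraries lay above all PBS libraries, while OVA NP libraries overlapped with them. The log2 fold change was 0.35 ± 0.08 for soluble OVA (edgeR adjusted p = 0.00778) and 0.20 for OVA NPs (95% interval 0.04 to 0.36, edgeR adjusted p = 0.0719). The soluble OVA call was lost without PBS replicate 1 (0.30) or PBS replicate 2 (0.31) and with all 18 libraries fitted together, and a call for OVA NPs was gained without PBS replicate 3 (0.31, edgeR adjusted p = 0.0046). Peyer's patch libraries held 118, 160, and 117 CPM with PBS, 55.3, 29.1, and 37.4 CPM after soluble OVA, and 76.5, 105, and 102.1 CPM after OVA NPs. None of these 3 groups overlapped, with soluble OVA lowest. *Gpr183* fell by 1.71 on the log2 scale with soluble OVA (SE 0.27, 3.27-fold, edgeR adjusted p = 0.00863), a call kept without any 1 library. It was 2.33-fold higher after OVA NPs than after soluble OVA (1.22 ± 0.28, edgeR adjusted p = 0.0259), a call lost without soluble OVA replicate 3 (1.15), OVA NP replicate 2 (1.10), or OVA NP replicate 3 (1.12), and also without the count filter. Against PBS, OVA NPs gave -0.47 (95% interval -0.82 to -0.12), with an edgeR adjusted p of 0.4.

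**Figure D3:**
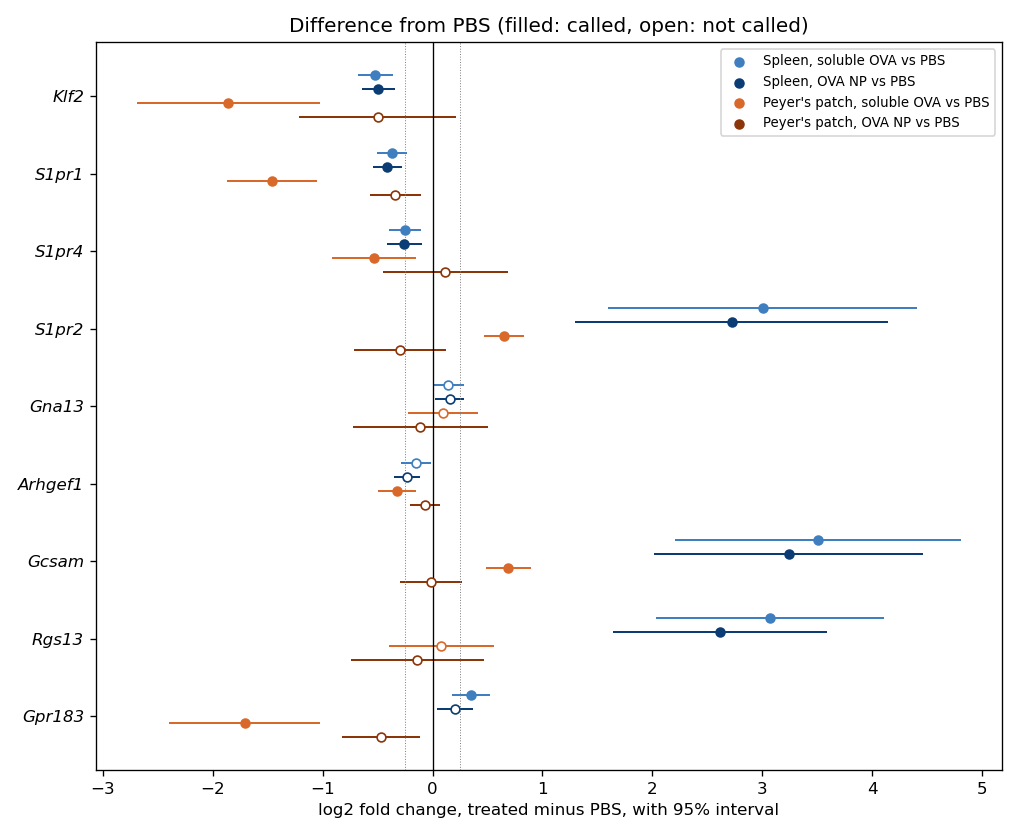
Log2 fold change of each gene against PBS (horizontal axis, with 95% intervals) for soluble OVA and OVA NPs in spleen and Peyer's patch. Filled points were called, open points were not, and dotted lines mark the cutoff of 0.25. The 3 largest differences in spleen are *Gcsam*, *Rgs13*, and *S1pr2*, from 2.62 to 3.51, and those in Peyer's patch are *Klf2*, *Gpr183*, and *S1pr1* with soluble OVA.

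The difference between tissues was itself tested, as the treatment effect in Peyer's patch minus that in spleen, with an edgeR adjusted p under 0.05 and no fold change cutoff. For soluble OVA this called 6 of the 9 genes, all with a lower effect in Peyer's patch, where 6.84% of 16541 genes were called, 1.77% with a higher and 5.07% with a lower effect. The differences were -1.33 ± 0.34 for *Klf2* (edgeR adjusted p = 0.0492), -1.08 ± 0.19 for *S1pr1* (0.0045), and -2.05 ± 0.30 for *Gpr183* (0.00383). The others called were -2.35 ± 0.49 for *S1pr2* (edgeR adjusted p = 0.0244), -2.81 ± 0.46 for *Gcsam* (0.00848), and -2.99 ± 0.47 for *Rgs13* (0.00706). Not called were *Gna13* (-0.04), *Arhgef1* (-0.16), and *S1pr4* (-0.28). For OVA NPs 3 of the 9 were called, all lower, where 4.42% of 16619 genes were called, 0.872% higher and 3.54% lower. These were *S1pr2* at -3.00 ± 0.53 (edgeR adjusted p = 0.0187), *Gcsam* at -3.24 ± 0.44 (0.00663), and *Rgs13* at -2.74 ± 0.47 (0.0161). The effect of OVA NPs on *Klf2* did not differ detectably between tissues (0.01, 95% interval -0.70 to 0.72), nor did that on *S1pr1* (0.09, -0.17 to 0.36). The *Klf2* call for soluble OVA was kept in 2 of 12 fits that left out 1 library, without PBS replicate 1 of Peyer's patch or soluble OVA replicate 1 of Peyer's patch, with values from -1.57 to -1.08 and adjusted p up to 0.118, and it was lost without the count filter (-1.3). The *S1pr2* call was kept in 5 of 12 for soluble OVA (-3.13 to -2.03, adjusted p up to 0.0698) and 8 of 12 for OVA NPs (-3.79 to -2.69, up to 0.0614), and the *Rgs13* call for OVA NPs in 9 of 12 (-3.32 to -2.50, up to 0.0533).

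Compared directly within a treatment, Peyer's patch B cells had more *S1pr2*, *Gcsam*, *Rgs13*, and *Gna13* transcript than spleen B cells. *Arhgef1* was not called under any treatment. Its log2 fold change was -0.016 with PBS, -0.19 with soluble OVA, and 0.17 with OVA NPs. The last had an edgeR adjusted p of 0.0358 but was under the fold change cutoff. With PBS, 7 of the 9 genes were called, 5 higher and 2 lower, where 45.6% of 15463 genes were called, 25.5% higher and 20.1% lower. *Rgs13* was 31.2-fold, *S1pr2* 28.2-fold, and *Gcsam* 27.4-fold higher in Peyer's patch (edgeR adjusted p of 0.00043, 0.00124, and 0.000604). *Gna13* was 2.12-fold higher (edgeR adjusted p = 0.000415) and *Gpr183* 1.73-fold higher (0.00133), while *S1pr4* was 3.97-fold lower (1.06e-05) and *S1pr1* 1.41-fold lower (0.000726). With soluble OVA, 8 were called, 4 in each direction, against 51.1% of 15415 genes (26.7% higher, 24.3% lower), and *S1pr2* differed by 5.49-fold, *Rgs13* by 3.92-fold, and *Gcsam* by 3.86-fold. *Gpr183* then lay on the other side, 2.40-fold lower in Peyer's patch (edgeR adjusted p = 0.00543), and *Klf2* was 3.75-fold and *S1pr1* 3.02-fold lower. With OVA NPs, 7 were called, 4 higher and 3 lower, against 37.1% of 15466 genes (22% higher, 15.1% lower), with *Rgs13* 4.70-fold, *S1pr2* 3.54-fold, and *Gcsam* 2.92-fold higher. *Gna13* was 1.80-fold higher with OVA NPs (log2 fold change 0.85 ± 0.20, edgeR adjusted p = 0.0183), a call lost without spleen OVA NP replicate 1 (0.80), 2 (0.83), or 3 (0.90) and without the count filter. *Klf2* with PBS was 1.48-fold lower in Peyer's patch at an edgeR adjusted p of 0.132, and 0.0198 without Peyer's patch PBS replicate 1 (-0.33). *Gpr183* with OVA NPs gave 0.15 (95% interval -0.08 to 0.38), and 0.26 with a call without Peyer's patch OVA NP replicate 1. Libraries of the tissues did not overlap for 8 of the 9 genes with PBS, 9 with soluble OVA, and 8 with OVA NPs, against 60.2%, 62.7%, and 54.6% of all genes. The tissues differed in dissociation, since only Peyer's patches were digested with collagenase, and this cannot be told apart from tissue.

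**Figure D4:**
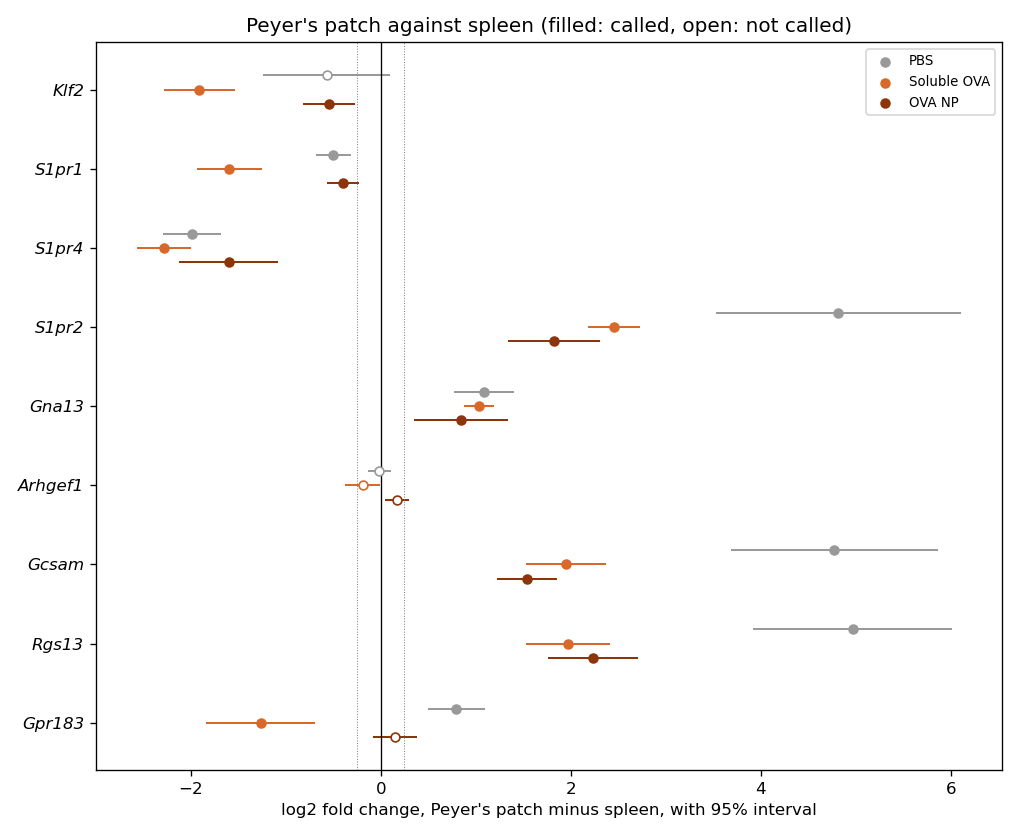
Log2 fold change of Peyer's patch against spleen (horizontal axis, with 95% intervals) for the 9 genes under PBS, soluble OVA, and OVA NPs. Filled points were called and open points were not. *S1pr2*, *Gcsam*, and *Rgs13* lie between 4.77 and 4.97 with PBS and between 1.54 and 2.46 with soluble OVA or OVA NPs.

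Ordered by group mean, *Klf2*, *S1pr1*, and *S1pr4* were highest in spleen PBS and lowest in Peyer's patch after soluble OVA. For *Klf2* the 4 groups between spleen PBS and Peyer's patch soluble OVA overlapped with their neighbours in the order. *S1pr2* and *Gcsam* had these end groups reversed. Their order ran from Peyer's patch soluble OVA through Peyer's patch PBS, Peyer's patch OVA NP, spleen soluble OVA, and spleen OVA NP to spleen PBS. In that order Peyer's patch PBS and OVA NP overlapped, and so did the 2 treated spleen groups. *Gna13* followed the tissues, with overlap between neighbouring groups within each tissue. *Gpr183* was highest in Peyer's patch PBS and lowest in Peyer's patch soluble OVA, with the spleen groups between.

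Markers of B cell subsets moved with these genes. The 15 germinal center markers summed to 1385–1563 CPM in spleen PBS, 2137–2434 CPM after soluble OVA, and 2063–2232 CPM after OVA NPs. Of the 15, 12 and 10 were called higher against PBS, where 10.5% and 8.6% of all genes were higher. Spleen PBS replicate 3 had the highest sum of its group. *Mef2b* rose by a log2 fold change of 3.25 with soluble OVA and 2.56 with OVA NPs, and *Nuggc* by 3.61 and 3.03. The Peyer's patch sum was 3538–4129 CPM with PBS, 6474–6669 CPM after soluble OVA, and 2927–4002 CPM after OVA NPs. Of the 15, 13 were called higher and 1, *Lmo2* (-1.13), lower with soluble OVA (13.5% and 13.9% of all genes). With OVA NPs 0 were called in either direction (0% of all genes). The 11 naive and follicular markers summed to 7651–8618 CPM in Peyer's patch PBS, 5421–6579 CPM after soluble OVA, and 6996–7137 CPM after OVA NPs. Of the 11, 7 were lower with soluble OVA in Peyer's patch (13.9% of all genes). *Ccr7*, which guides B cells to the T cell border, fell by 2.37 on the log2 scale there, and *Fcer2a* by 1.61. The 7 marginal zone markers summed to 2058–2282 CPM in spleen PBS, 1720–1977 CPM after soluble OVA, and 1739–2014 CPM after OVA NPs. Of the 7, 4 were lower with each treatment (6.72% of all genes with soluble OVA and 6.35% with OVA NPs). The 6 plasma cell markers summed to 375–432, 483–552, and 601–618 CPM in the same 3 groups. Markers of cells other than B cells moved as well. Between OVA NPs and soluble OVA in Peyer's patch, where *Klf2*, *S1pr1*, and *Gpr183* were called higher, 7 of 10 T cell markers, 5 of 6 dendritic cell markers, and 4 of 8 tested monocyte and macrophage markers were also higher. The other 1 of the dendritic cell markers was called lower. Here 12 of 15 germinal center markers were lower and 1 higher, and 5 of 11 naive and follicular markers were higher and 0 lower. Of all genes, 13.8% were higher and 16.3% lower in this comparison. In bulk samples, more cells of a type and more RNA per cell cannot be told apart, and the part of these cells in the results was not tested.

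Transcripts with the most similar pattern were named by Pearson correlation of log2 CPM over the 18 libraries among 9888 genes with a mean of at least 5 CPM. For *S1pr2* these included *Mef2b*, *Nuggc*, *Mybl1*, and *Basp1*, with r from 0.994 to 0.997, and all 4 are on the list of germinal center markers. Within the 9 spleen libraries alone r was between 0.991 and 0.997, and within the 9 Peyer's patch libraries between 0.882 and 0.985. For *Klf2* they were *Il10ra*, *Gad1*, *Gimap6*, *Adgre5*, and *B3gnt5*, with r from 0.971 to 0.978 over 18 libraries and between 0.815 and 0.944 over the spleen libraries. The libraries share tissue and treatment differences, so these values describe the pattern only.

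Other genes of the pathway were counted from fixed lists. Of 11 KLF2 relatives and genes linked to egress, 4 were lower with OVA NPs in the spleen (6.35% of all genes) and 5 with soluble OVA (6.72%), with list medians of -0.16 and -0.19 beside medians of 0.00062 and -0.0082 over all tested genes. They included the KLF2 relatives *Klf6*, which fell by 0.36 and 0.37 on the log2 scale, and *Klf3*, which fell by 0.28 and 0.44. In Peyer's patch 7 of the 11 were lower with soluble OVA (13.9% of all genes, list median -0.81 beside -0.017 over all genes), among them *Cd69* (-1.33) and *Itgb7* (-1.32), which encodes a subunit of the gut homing integrin. CD69 is known to pull S1PR1 from the cell surface. Against soluble OVA, 6 of the 11 were higher with OVA NPs (13.8% of all genes), including *Itgb7* (1.22) and *Klf3* (0.98).

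Of 12 genes for S1P receptors, synthesis, and transport, 1 was higher and 2 lower with each treatment in the spleen. The shares of all genes were 8.6% higher and 6.35% lower with OVA NPs and 10.5% and 6.72% with soluble OVA. The list medians were -0.06 and -0.11, beside 0.00062 and -0.0082 over all genes. The lipid phosphatase gene *Plpp1* rose by 1.72 with soluble OVA and 1.37 with OVA NPs, *Plpp3* fell by 0.54 and 0.47, and the receptor gene *S1pr5* fell by 1.91 and 1.75. In the same comparisons 4 of 7 tested monocyte and macrophage markers were lower with soluble OVA (median -1.49) and 2 of 7 with OVA NPs (median -0.55). These markers summed to 108–251 CPM with PBS, 50.2–99.3 CPM after soluble OVA, and 60.2–191 CPM after OVA NPs, and their part in these falls was not tested. Of the S1P list, 11 genes were tested with soluble OVA in Peyer's patch. Lower were 3 (13.9% of all genes), *Plpp3* (-1.05), the S1P transporter gene *Spns2* (-0.88), and *S1pr3* (-0.71), and 0 were higher (13.5% of all genes). Of 15 genes for G12/13 signaling, 2 were higher and 5 lower with soluble OVA in Peyer's patch, where 13.5% of all genes were higher and 13.9% lower (list median -0.19 beside -0.017), among them *Gna12* (0.65), which encodes the other α subunit of the family, and *Rdx* (-1.14), a linker of membrane and actin. In the spleen 3 were lower with soluble OVA and 2 with OVA NPs (6.72% and 6.35% of all genes), *Rhob* in both.

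Among 14 genes for RGS proteins, receptor kinases, and arrestins, 13 were tested in the spleen, and 2 were higher and 5 lower with each treatment. The shares of all genes were 8.6% higher and 6.35% lower with OVA NPs and 10.5% and 6.72% with soluble OVA, and the list medians were -0.16 and -0.20. *Rgs1* rose by 1.44 with soluble OVA and 1.35 with OVA NPs, and *Rgs10* by 0.69 and 0.43. The receptor kinase gene *Grk3* fell by 0.88 and 0.67. Among Peyer's patch B cells *Rgs10* was the only 1 of the list higher with soluble OVA (0.73; 13.5% of all genes), and 5 were lower (13.9%), *Arrb1* (-0.83) and *Grk3* (-0.82) by the most. On a list of 6 genes linked to oxysterols, the ligands of EBI2, 4 could be tested. *Ch25h*, which encodes the first enzyme of ligand synthesis, was at 0 in all spleen groups. *Cyp27a1* fell by 0.86 with soluble OVA and 0.88 with OVA NPs in the spleen, and *Insig1* rose by 0.54 with soluble OVA in the spleen and fell by 0.56 in Peyer's patch.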

How the data were processed

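B cells were profiled in 18 libraries of polyA RNA. According to the paper's methods and the submitters' processing notes, the authors used Cutadapt 2.3 for trimming, STAR 2.7.8a for mapping to GRCm38, and RSEM 1.3.3 for expected counts per gene. The table deposited by the authors holds these expected counts, not normalized and all whole numbers. Groups were read from the labels.

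Each comparison was fitted by edgeR (version 4.0.16, under R 4.3.3) to its own 6 libraries, and differences between tissues to 12. Genes were kept by filterByExpr (minimum count 10, minimum total 15), scaled by TMM, and fitted with the robust quasi-likelihood model, and p-values were adjusted by Benjamini-Hochberg across every gene tested. The cutoffs of 0.05 and 0.25 follow the paper's methods, which used DESeq2. DESeq2 1.42.0, its size factors, no count filter, all 18 libraries in 1 fit, a replicate block, no fold change cutoff, and leaving out each library were alternatives. The fitting steps were tested only on simulated counts with the same spread for every gene. That spread was not taken from these replicates, so the test does not show how the calls fare here. Gene positions and exon lengths came from GENCODE vM21 on GRCm38, a release other than the authors' Ensembl annotation. Of the 9 genes, 8 matched the RefSeq promoter table.

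All 9 genes are named in the text. From each of 18 lists with 158 entries, at most 3 called genes per direction and comparison are named, by size of change, and for *Klf2* and *S1pr2* the 5 genes with the highest correlation. *Krt20* and *Ch25h*, at 0 in spleen, and *Ms4a1* and *Cd79a* are named besides. Some genes that this rule names are not reported here. The genes, lists, and tests were chosen with earlier results of these data known. Replicates were compared in 18 pairs, and none agreed within counting error (chi-square per gene between 4.72 and 41.3).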

Additional observations from a re-analysis of the deposited data

Results flagged for a closer look

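Of the 18 tests of whether a treatment effect differed between tissues (9 genes, 2 treatments), 9 were past an edgeR adjusted p of 0.05 and are listed here as the effect in Peyer's patch minus that in spleen on the log2 scale. With soluble OVA, *Gpr183* differed by -2.05, since it rose in spleen and fell in Peyer's patch. *Klf2* differed by -1.33 and *S1pr1* by -1.08, each falling in both tissues and by more in Peyer's patch. *S1pr2* differed by -2.35 and *Gcsam* by -2.81, each rising in both tissues and by more in spleen on the log2 scale, and *Rgs13* by -2.99, called in spleen only. From PBS to soluble OVA, mean *S1pr2* went from 6.33 to 50.1 CPM in spleen and from 174 to 275 CPM in Peyer's patch. Mean *Gcsam* went from 4.52 to 50.6 CPM and from 121 to 196 CPM. With OVA NPs, *S1pr2* differed by -3.00, *Gcsam* by -3.24, and *Rgs13* by -2.74, each called in spleen and not in Peyer's patch.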

How the results depend on the processing

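Of 1278 repeated values of the 9 genes, 1145 kept their direction and side of the cutoffs, 89 lost a call, 18 gained one, and 26 changed sign, none of them a value that was called. The count of genes called out of 9 moved from 7 to 3 with all 18 libraries for soluble OVA in spleen, from 0 to 1 without the count filter for OVA NPs against soluble OVA in spleen, from 5 to 3 without the filter for that comparison in Peyer's patch, and from 3 to 5 with DESeq2 for the tissue difference of OVA NPs. Leaving out 1 library gave 3 to 7 for both treatments in spleen, 0 for OVA NPs against soluble OVA in spleen and against PBS in Peyer's patch, 4 to 7 for soluble OVA and 4 to 6 for OVA NPs against soluble OVA in Peyer's patch, 7 to 8, 8, and 6 to 8 for the tissues under PBS, soluble OVA, and OVA NPs, and 1 to 3 and 4 to 6 for the tissue differences of OVA NPs and soluble OVA. The cause was not tested.

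The replicate number as a block changed the count from 6 to 3 for OVA NPs in spleen (calls lost for *S1pr2*, *Gcsam*, and *S1pr4*). It also ended the calls for *S1pr2* with soluble OVA in spleen (3.11, edgeR adjusted p = 0.0871), *Klf2* (-1.83, 0.0738) and *S1pr4* (-0.53, 0.0548) with soluble OVA in Peyer's patch, *S1pr2* (-0.98, 0.0521) and *Gpr183* (1.27, 0.0923) between OVA NPs and soluble OVA there, and *Klf2* in the tissue difference of soluble OVA (-1.34, 0.106). Calls were gained for *S1pr4* between OVA NPs and soluble OVA in Peyer's patch (0.61) and *Gpr183* in the tissue difference of OVA NPs (-0.66). The block gave 3119 genes against 4697 for OVA NPs against soluble OVA in Peyer's patch and 429 against 734 for the tissue difference of OVA NPs. In 0 of 9 comparisons did every same-numbered pair correlate above 0.1 (mean r from -0.19 to 0.05). With 3 libraries a group, this cannot decide whether the numbers pair the samples.

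Signs changed for *Gcsam* with OVA NPs in Peyer's patch without the filter (0.0059) and for *Klf2* in the tissue difference of OVA NPs with all 18 libraries (-0.0075). Without 1 library, OVA NPs against PBS in Peyer's patch ran from -0.084 to 0.11 for *Gcsam*, -0.24 to 0.091 for *Gna13*, -0.31 to 0.057 for *Rgs13*, and -0.10 to 0.32 for *S1pr4*. OVA NPs against soluble OVA in spleen ran from -0.046 to 0.097 for *Klf2*, -0.091 to 0.0061 for *S1pr1*, -0.095 to 0.049 for *S1pr4*, and -0.040 to 0.070 for *Gna13*. *Rgs13* with soluble OVA in Peyer's patch ran from -0.045 to 0.23, and the tissue differences from -0.23 to 0.25 for *Klf2* with OVA NPs and -0.18 to 0.14 for *Gna13* with soluble OVA.

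Genes called over the whole table moved from 33 to 113 with DESeq2, 230 without the filter, and 14 with all 18 libraries for OVA NPs against soluble OVA in spleen, from 0 to 149, 146, and 24 for OVA NPs in Peyer's patch, and with DESeq2 from 734 to 1290 and from 1131 to 1816 for the tissue differences of OVA NPs and soluble OVA. The p-values measure the spread between 3 libraries a group.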
